A study of Mus musculus with 16 samples.

Results

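The 10 genes described here encode proteins that build blood vessels and let leukocytes leave them: the ligands Vegfa and Angpt2, the receptors Flt1, Kdr and Tek, the junction proteins Pecam1 and Cdh5, and the adhesion molecules Icam1, Vcam1 and Selp. They were taken by symbol from a table of 18929 genes, and all 10 were found. RNA had been sequenced from 16 tumors of B16F10, a mouse melanoma cell line, grown in the right side of the abdomen of C57BL/6 mice, all female and aged 7 to 8 weeks. There were 4 independent tumors in each of 4 groups, treated by intraperitoneal injection for 9 to 11 days: vehicle (corn oil with an IgG isotype control antibody), anti-PD1 (PD1 mAb, an antibody that blocks the checkpoint receptor PD1), α-KG (α-ketoglutarate at 100 mg/kg) and α-KG + anti-PD1, here called the combination. The labels name only the treatment, and the make-up of the vehicle is given by the study, whose methods list the control antibody as IgG2a. All tumors came from 1 cell line, so the tumor cells had 1 genetic origin, while the vessels and leukocytes came from the host.

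Vascular endothelial growth factor A is secreted by cells short of oxygen and binds 2 receptors on endothelium, Kdr, which carries most of the growth signal, and Flt1, which binds the ligand tightly and also exists in a secreted form. Angiopoietin 2 acts on the receptor Tek and loosens vessels so that they can sprout or regress. Leukocytes roll on selectins, arrest on Icam1 and Vcam1 through integrins and pass between endothelial cells held together by Pecam1 and Cdh5. Several of these genes are not restricted to endothelium: Pecam1 and Icam1 are also made by leukocytes, Vcam1 by some macrophages, Selp by platelets and their precursors, and Vegfa by tumor cells.

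Values are FPKM, a fragment count scaled by transcript length and library size and given to 2 decimals, so levels can be compared between genes. Differences are in log2(FPKM + 1), a scale on which genes near or below 1 FPKM change by less than their ratio, with an SE and an adjusted p from limma computed on 12850 genes, those at or above 0.5 FPKM in 4 tumors or more. A gene was called when its adjusted p was under 0.05. Means carry the SD of 4 tumors. Of the 10 genes, 6 were tested (Vegfa, Angpt2, Flt1, Pecam1, Icam1 and Vcam1). Kdr and Cdh5, each at 0.5 FPKM or more in 3 tumors, and Tek and Selp, in 0 tumors, were below the minimum. One set of 4 vehicle tumors serves all 3 comparisons with vehicle.

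Depth is unknown, since FPKM were used and no counts, and the FPKM sums ran from 514180 to 527812 in the combination tumors and from 549740 to 654772 in the other 12. Hemoglobin genes took 2.09 to 2.23% of the sum in combination tumors and 4.23 to 22.2% in the others. Between the combination and vehicle, the median difference over all genes tested was 0.15 in the deposited values. It became -0.11 with quantile normalization, -0.16 with the median of each tumor set to one level (centering) and 0.36 with all tumors scaled to one sum. Skeletal muscle markers summed to 50.9 to 658 FPKM in vehicle tumors, highest in tumor 4, and 2.5 to 63.7 in the others. No call on the 6 tested genes changed without vehicle tumor 4. Vehicle tumors 1 to 3 held 50.9, 51.6 and 68.3 FPKM, against 2.5 to 4.1 in anti-PD1 and α-KG tumors. Leaving out tumor 4 therefore does not remove this difference.

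The endothelial label was checked against 20 other endothelial markers. Of these, 15 stayed under 1 FPKM in all 16 tumors, among them the transcription factors Erg (0 to 0.29 FPKM) and Sox17 (0 to 0.15), the junction protein Cldn5 (0 to 0.17), the sialomucin Emcn (0 to 0.82) and the orphan receptor Tie1 (0.02 to 0.5). Together these 15 summed to 0.9 to 5.23 FPKM per tumor. The other 5, led by the TGF-β co-receptor Eng at 54.6 to 92.84 FPKM, made up at least 95.3% of the summed level of the list. Tie1, Angpt1, Angpt4, Ptprb and Svep1, the other genes of the angiopoietin pathway examined, summed to at most 0.79 FPKM in any tumor, and all 5 were below the minimum. Most of the genes that define endothelium were thus at or near 0 in these tumors, and the 10 genes are described one by one and not as a measure of endothelial cells.

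**Figure D1:**
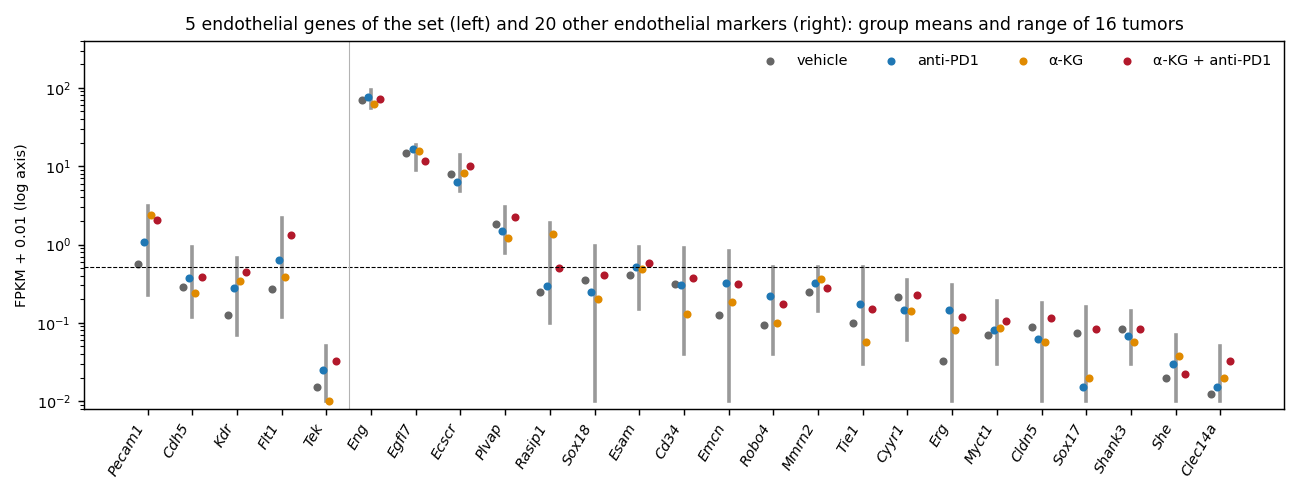
Level of the 5 endothelial genes of the set and of 20 other endothelial markers, as FPKM + 0.01 on a log axis. Points are the means of 4 tumors per group, gray bars run from the lowest to the highest of 16 tumors, and the dashed line marks 0.5 FPKM. Eng, Egfl7 and Ecscr lie well above the line, and most of the other markers, with Cdh5, Kdr and Tek, lie below it.

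Vegfa was by far the most abundant of the 10, with a mean over 16 tumors of 84.4 FPKM that exceeded 95.1% of the genes in the table. Icam1 (7.09 FPKM), Angpt2 (5.65), Vcam1 (5.06) and Pecam1 (1.502) followed. Flt1 (0.646), Cdh5 (0.310), Kdr (0.287), Selp (0.148) and Tek (0.0106) averaged under 1 FPKM, and values that low are the least precise.

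Against vehicle, 4 of the 6 tested genes rose after the combination (Icam1, Vcam1, Pecam1 and Flt1), where 45.3% of all genes tested were called in either direction. After α-KG alone, Icam1 and Pecam1 rose and Vegfa fell, 3 of 6, where 15.9% of all genes were called. After anti-PD1 alone, limma called 0 of the 6, where 0.747% of all genes were called, although 3 of them (Icam1, Vcam1 and Angpt2) had an unadjusted p under 0.05. Between the treatments, Icam1 was higher after the combination than after anti-PD1 (1 of 6, against 15.5% of all genes). Vegfa, Vcam1 and Flt1 were higher after the combination than after α-KG (3 of 6, against 38.3%), and Icam1 was higher after α-KG than after anti-PD1 (1 of 6, against 3.16%). With quantile normalization the split was 2 higher (Icam1 and Vcam1) and 1 lower (Angpt2) for the combination against vehicle, and 2 higher and 1 lower (Angpt2) for the combination against α-KG, where the deposited values gave 4 and 3 higher and 0 lower. The interaction, which asks whether both treatments together differ from the sum of each on the log2 scale, was called for Vegfa (1 of 6, against 11.1%). With no minimum level, 18924 genes were tested, and the share called was 31.7% for the combination and 10.1% for α-KG against vehicle, 26.5% for the combination against α-KG, 1.99% for α-KG against anti-PD1 and 5.74% for the interaction. That fit added Kdr in the first of these comparisons and Selp in the other 4. In bulk tumors, fewer cells of a type and less RNA per cell cannot be told apart, and this holds for every level given here.

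**Figure D2:**
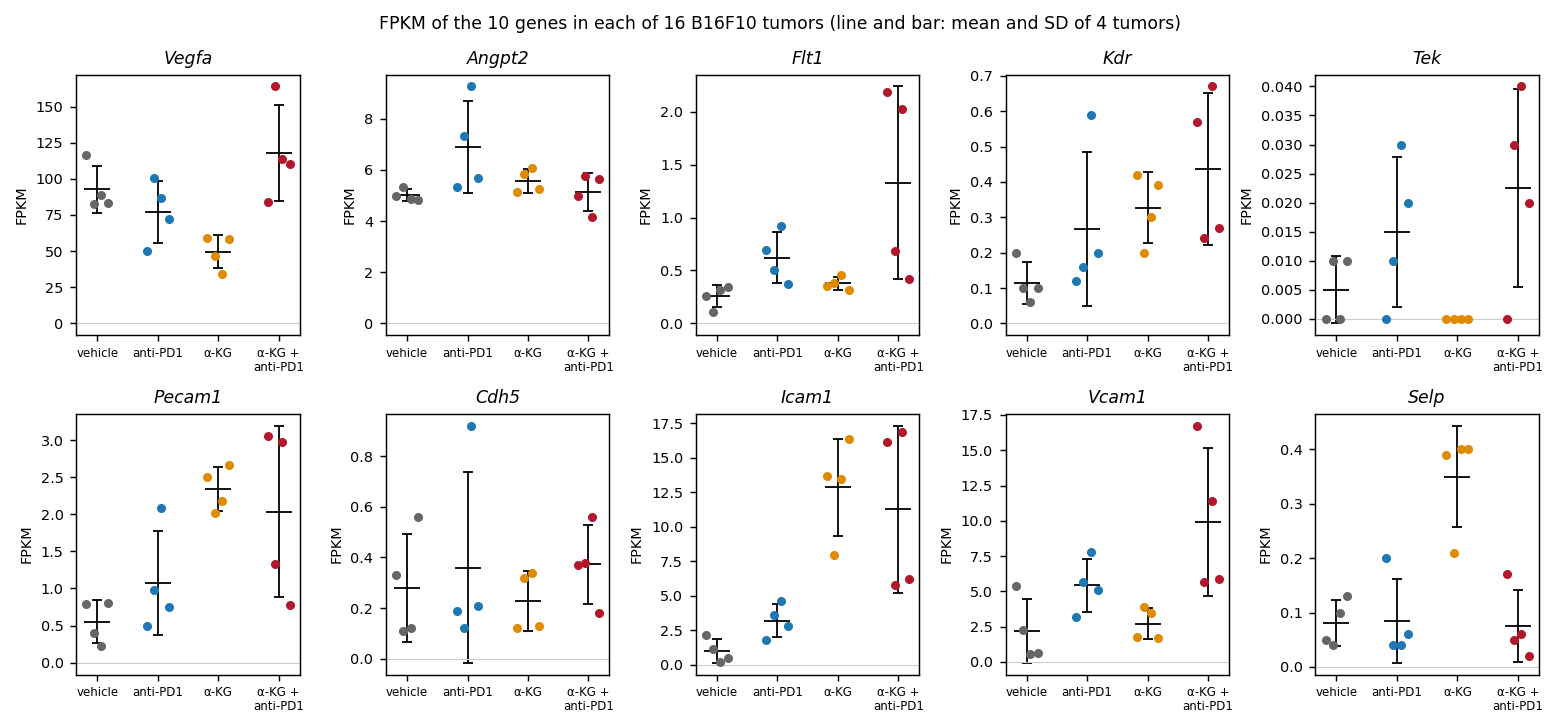
FPKM of each of the 10 genes (1 panel per gene, linear axes of different range) in the 4 tumors of each group. Points are tumors 1 to 4 from left to right, and the horizontal line and bars give the mean and SD of 4 tumors. Icam1 is higher in all 8 tumors that received α-KG than in the 8 that did not, Vegfa is lowest after α-KG alone, and Selp is highest there.

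**Figure D3:**
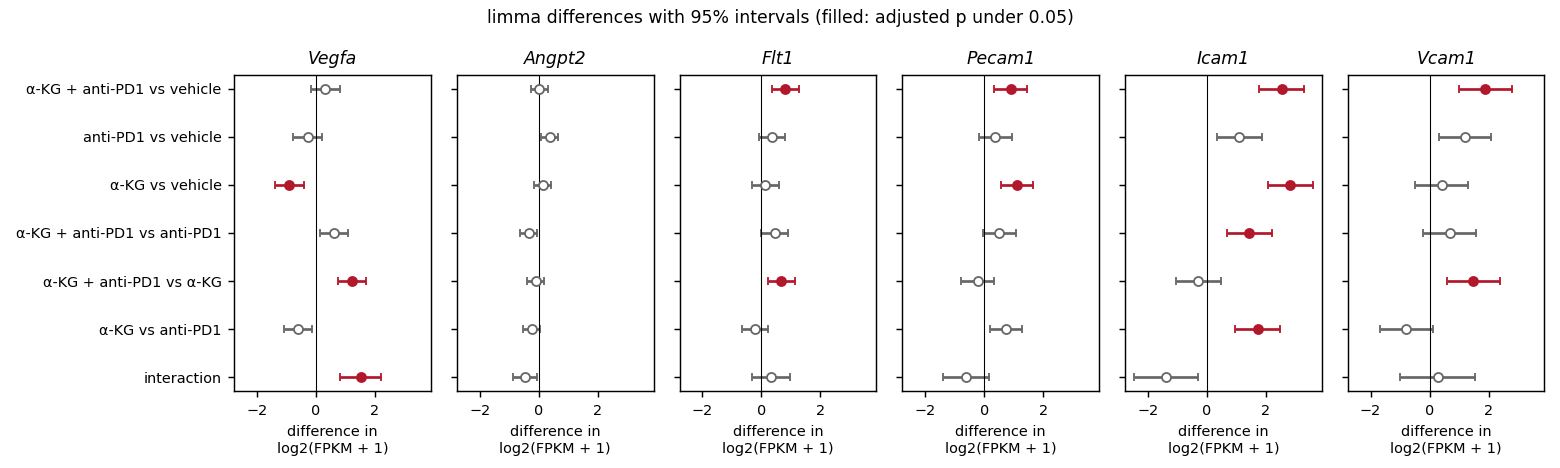
Difference in log2(FPKM + 1) for the 6 tested genes in 6 comparisons and the interaction, with 95% intervals from limma. Filled red points have an adjusted p under 0.05, open gray points do not. The interval of Vegfa lies below 0 for α-KG against vehicle and above 0 for the combination against α-KG and for the interaction.

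Vegfa (Gene ID 22339, GRCm38 chr17:46016993-46032377) stood at 116.28, 82.54, 88.89 and 82.99 FPKM in vehicle tumors 1 to 4, at 50.3, 100.23, 86.97 and 71.93 in anti-PD1 tumors, at 58.91, 46.9, 34.37 and 58.51 in α-KG tumors and at 84.16, 163.93, 113.44 and 110.31 in combination tumors. All 4 α-KG tumors lay below all vehicle and all combination tumors, and the combination, vehicle and anti-PD1 groups overlapped. The order of the means was α-KG (49.7 ± 11.6), anti-PD1 (77.4 ± 21.4), vehicle (92.7 ± 16) and the combination (118 ± 33.3), and no neighbors in this order differed past the threshold. Vegfa fell by 0.90 after α-KG against vehicle (SE 0.23, adjusted p = 0.0132), and it was 1.22 higher after the combination than after α-KG (SE 0.23, adjusted p = 0.00136). The differences of anti-PD1 (-0.29, 95% interval -0.77 to 0.19, adjusted p = 0.546) and of the combination (0.32, -0.16 to 0.80, adjusted p = 0.264) from vehicle did not pass. The level after both treatments was 1.51 above the sum of the single effects (SE 0.32, interaction adjusted p = 0.00942), and this was called in all 24 alternatives run, with an adjusted p between 0.00467 and 0.0235. The fall after α-KG lost its call without α-KG tumor 3 (-0.74, adjusted p = 0.0525, and between 0.00338 and 0.0525 across alternatives).

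The sequence before the Vegfa start is shown because this ligand carried the interaction. It covers the 250 bases before the start at chr17:46032378-46032627, minus strand, from the RefSeq promoter table of GRCm38.p6, with the match to the NF-κB motif in capitals, 118 bases before the start. The hypoxia response element, searched as ACGTG on both strands, was not in this window. Bases further upstream were not searched, so its absence here does not show that Vegfa lacks such an element. A further Vegfa start lies inside the gene span given above, with 1 match to ACGTG 211 bases before that start. The NF-κB motif was searched as GGGRNNYYCC on both strands, with R for A or G, Y for C or T and N for any base. In windows of 300 bases (250 before and 50 after the start), 19.7% of 32544 distinct promoters hold ACGTG and 8.49% the NF-κB motif.
Vegfa promoter: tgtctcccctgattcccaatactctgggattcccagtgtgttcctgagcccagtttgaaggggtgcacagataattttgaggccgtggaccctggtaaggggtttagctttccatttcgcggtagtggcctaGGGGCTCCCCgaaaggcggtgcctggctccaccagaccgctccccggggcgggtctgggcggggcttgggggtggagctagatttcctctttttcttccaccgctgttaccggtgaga

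Of the other ligands and receptors of the VEGF family, some changed and others did not pass the test. Vegfb (Gene ID 22340) was at a mean of 88.7 to 92.8 FPKM in every group and Vegfc at 4.24 to 5.22, and neither was called in any of the 7 contrasts. Pgf (18654), placental growth factor, which binds Flt1, was at 28.7 ± 4.23 FPKM in vehicle and 14.1 ± 2.20 after α-KG, a fall by 0.97 (adjusted p = 0.00287), and was at 19.8 ± 5.03 after the combination, 0.54 below vehicle (adjusted p = 0.034). The second of these was lost after scaling all tumors to one sum (-0.33, adjusted p = 0.227). Nrp1 (18186), a co-receptor for VEGF that macrophages also make, rose after the combination from 3.71 ± 0.620 to 9.28 ± 1.88 FPKM, by 1.12 (adjusted p = 0.000417), and was 0.76 above α-KG alone (adjusted p = 0.00162). Of the 6 tested genes of this list, 1 was higher and 1 lower against vehicle after the combination (median 0.00), and 1 was lower after α-KG (median -0.06). The shares of all genes called were 45.3% and 15.9%. For the combination, 1 higher and 3 lower were counted with centering or quantile normalization, and 1 higher and 0 lower with all tumors scaled to one sum.

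Vegfa is among the genes that the hypoxia-inducible factors switch on, and 12 other targets of these factors were followed. Between α-KG and vehicle, 6 of the 12 were lower and 1 was higher (median -0.29, against -0.04 over all genes), where 15.9% of all genes were called. Under the other scalings 4 to 7 were lower. Ero1a fell by 0.80 (adjusted p = 0.00446), Adm by 0.79 (adjusted p = 0.00398) and Bnip3 by 0.60 (adjusted p = 0.0004), while Egln3, the oxygen sensor that marks these factors for decay, rose by 1.56 (adjusted p = 3.16e-05). Between the combination and α-KG, 3 were higher and 1 lower as deposited, but 0 were higher and 4 lower after centering on the tumor medians, so their direction depended on the scaling. As deposited, 4 of the 12 were called after the combination against α-KG, where 38.3% of all genes were called. Car9 (0.36, adjusted p = 0.0194), Adm (0.47, adjusted p = 0.0324) and Pdk1 (0.23, adjusted p = 0.0431) were higher, like Vegfa. Egln3 was 1.43 lower (difference -1.43, adjusted p = 0.000161). Over these scalings and the deposited values, Egln3 was called in 5 of 5, Car9 in 4, and Adm and Pdk1 in 3 each, Pdk1 with a change of sign in 1. Between the combination and vehicle, 0 of the 12 were higher and 5 lower (median -0.25, against 0.15 over all genes). Here 45.3% of all genes were called, and quantile normalization gave 0 higher and 4 lower. The largest falls were Bnip3 (-0.58), Ldha (-0.49), Pgk1 (-0.47) and Ero1a (-0.43), while Vegfa differed by 0.32 and was not called. The 12 summed to 3735 to 4429 FPKM in combination tumors and 5053 to 5684 in vehicle tumors.

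Flt1 (Gene ID 14254, chr5:147561604-147726438) stood at 0.26, 0.11, 0.32 and 0.34 FPKM in vehicle tumors, 0.69, 0.5, 0.92 and 0.37 in anti-PD1 tumors, 0.35, 0.38, 0.46 and 0.32 in α-KG tumors and 2.19, 0.68, 2.03 and 0.42 in combination tumors. Every combination and every anti-PD1 tumor lay above every vehicle tumor, and combination tumors 1 and 3 stood apart from the rest of all groups. The order of the means was vehicle (0.258 ± 0.104), α-KG (0.378 ± 0.0602), anti-PD1 (0.620 ± 0.239) and the combination (1.33 ± 0.909), and no neighbors in it differed past the threshold. The rise after the combination was 0.81 against vehicle (SE 0.21, adjusted p = 0.00711) and 0.67 against α-KG (SE 0.21, adjusted p = 0.0218). Against vehicle, the call was lost after quantile normalization (0.42, adjusted p = 0.0796) and centering (0.49, adjusted p = 0.0589), its adjusted p lying between 0.000824 and 0.0796 across alternatives, and the difference was 1.79 with a pseudocount of 0.1. Against α-KG it was lost in both of these scalings (0.42 and 0.40), when only both groups were fitted (adjusted p = 0.066) and without combination tumor 1 (0.49) or 3 (0.51), with an adjusted p between 0.00312 and 0.142, and it was 1.32 with the smaller pseudocount.

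Beside these levels, the summed FPKM of 9 T-cell markers was 225 and 186 in combination tumors 1 and 3, 65.5 and 27.3 in tumors 2 and 4, and at most 41.8 in any other tumor. All 9 were higher after the combination than in vehicle and than after α-KG, where 45.3% and 38.3% of all genes were called. Under quantile normalization and centering, 8 of 9 were higher than after α-KG. The part of these cells in the Flt1 level was not tested.

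Kdr (Gene ID 16542, chr5:75932827-75979072), the main signaling receptor for Vegfa, was at 0.2, 0.1, 0.06 and 0.1 FPKM in vehicle tumors, 0.12, 0.16, 0.59 and 0.2 in anti-PD1 tumors, 0.42, 0.2, 0.3 and 0.39 in α-KG tumors and 0.57, 0.24, 0.67 and 0.27 in combination tumors. The combination tumors (0.438 ± 0.215) lay above the vehicle tumors (0.115 ± 0.0597) without overlap, and the anti-PD1 (0.268 ± 0.217) and α-KG (0.328 ± 0.0991) means lay between them. With no minimum level, the difference between these groups was 0.36 (SE 0.11, adjusted p = 0.0271), and no other contrast called Kdr. An exact two-sided permutation test of these 2 groups gave p = 0.029, the smallest that 4 tumors against 4 allow. It is 1 of 60 such tests computed over 10 genes and 6 comparisons, unadjusted.

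Flt1 and Kdr lie on mouse chromosome 5, and their promoters are shown because both receptors had their highest mean after the combination. They cover chr5:147726012-147726261 and chr5:75978456-75978705, both on the minus strand and 250 bases before the start, with matches to the NF-κB motif in capitals, 92 and 74 bases before it.
Flt1 promoter: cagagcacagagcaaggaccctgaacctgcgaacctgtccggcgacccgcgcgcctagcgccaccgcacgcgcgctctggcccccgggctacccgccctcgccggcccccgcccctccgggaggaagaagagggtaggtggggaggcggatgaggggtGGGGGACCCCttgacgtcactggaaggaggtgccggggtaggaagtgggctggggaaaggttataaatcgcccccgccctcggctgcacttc
Kdr promoter: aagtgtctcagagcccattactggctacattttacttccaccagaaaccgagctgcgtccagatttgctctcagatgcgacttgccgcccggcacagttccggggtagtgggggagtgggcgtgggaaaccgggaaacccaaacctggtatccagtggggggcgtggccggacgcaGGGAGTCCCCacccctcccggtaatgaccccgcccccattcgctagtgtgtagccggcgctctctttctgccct

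Angpt2 (Gene ID 11601, chr8:18690263-18741562), the Tek ligand, stayed between 4.16 and 9.26 FPKM in all 16 tumors. It stood at 4.99, 5.33, 4.85 and 4.84 FPKM in vehicle tumors, 5.31, 7.32, 9.26 and 5.7 in anti-PD1 tumors, 5.12, 5.84, 6.07 and 5.25 in α-KG tumors and 4.99, 5.76, 4.16 and 5.66 in combination tumors. The highest values were those of anti-PD1 tumors 3 and 2, and all groups overlapped, with means of 5.00 ± 0.229 in vehicle, 5.14 ± 0.739 after the combination, 5.57 ± 0.457 after α-KG and 6.90 ± 1.80 after anti-PD1. No contrast called it as deposited. The difference of anti-PD1 from vehicle was 0.37 (95% interval 0.08 to 0.66, adjusted p = 0.195) and that of the combination from vehicle was 0.03 (-0.26 to 0.31, adjusted p = 0.891), the latter at -0.40 after quantile normalization (adjusted p = 0.0204), -0.29 after centering and 0.22 after scaling all tumors to one sum. The sign of this last difference thus depended on the scaling. Angpt2 was also called lower after the combination than after anti-PD1 with quantile normalization (-0.65, adjusted p = 0.0124) and centering (-0.58, adjusted p = 0.017), where it was -0.34 as deposited (adjusted p = 0.0892), and lower than after α-KG in the same scalings (-0.45, adjusted p = 0.0197, and -0.38, adjusted p = 0.0309). Angpt2 had an unadjusted p under 0.05 in 3 of the 7 contrasts.

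Tek (Gene ID 21687, chr4:94739086-94874976), the receptor for Angpt2, was listed at 0 in 8 of 16 tumors, among them all 4 α-KG tumors, and reached at most 0.04 FPKM, in combination tumor 3. The vehicle tumors were listed at 0, 0.01, 0 and 0.01, the anti-PD1 tumors at 0, 0.01, 0.03 and 0.02 and the combination tumors at 0, 0.03, 0.04 and 0.02. These values lie within a few steps of the last decimal, and limma with no minimum level called Tek in no contrast.

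Pecam1 (Gene ID 18613, chr11:106654213-106715281), also known as CD31, rose after α-KG and after the combination. It stood at 0.79, 0.4, 0.22 and 0.81 FPKM in vehicle tumors, 0.49, 0.98, 2.08 and 0.75 in anti-PD1 tumors, 2.5, 2.02, 2.18 and 2.67 in α-KG tumors and 3.06, 1.33, 2.98 and 0.78 in combination tumors. The α-KG tumors lay above all vehicle tumors, while combination tumor 4 lay within the vehicle range. The difference from vehicle was 1.12 after α-KG (SE 0.26, adjusted p = 0.00818), from a mean of 0.555 ± 0.292 to 2.34 ± 0.296 FPKM, and 0.90 after the combination (SE 0.26, adjusted p = 0.0114), to 2.04 ± 1.16. With a pseudocount of 0.1 these were 2.02 and 1.64. The second was 0.44 after quantile normalization and lost its call (adjusted p = 0.113, and between 0.00215 and 0.113 across alternatives). The anti-PD1 group, at 1.08 ± 0.699 FPKM, ranked between vehicle and the combination and differed from neither past the threshold, nor did the combination from α-KG (-0.22, 95% interval -0.77 to 0.33).

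Cdh5 (Gene ID 12562, chr8:104101613-104144504), VE-cadherin, the adhesion protein of endothelial junctions, stood at 0.33, 0.11, 0.12 and 0.56 FPKM in vehicle tumors, 0.19, 0.12, 0.92 and 0.21 in anti-PD1 tumors, 0.12, 0.32, 0.34 and 0.13 in α-KG tumors and 0.37, 0.38, 0.56 and 0.18 in combination tumors. All groups overlapped, with means from 0.228 after α-KG to 0.373 after the combination, and with no minimum level limma called Cdh5 in no contrast. Its difference between α-KG and vehicle was -0.05 (95% interval -0.39 to 0.28), while that of Pecam1 in the same comparison was 1.12.

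Leukocyte markers are given beside Pecam1 because leukocytes also make it. The 12 markers of all leukocytes were higher after α-KG and after the combination than in vehicle, 12 of 12 in each comparison and under each scaling. Over all genes, 15.9% and 45.3% were called in these comparisons as deposited. The summed level of the 12 markers ran from 329 to 1155 FPKM in combination tumors, 588 to 639 in α-KG, 221 to 416 in anti-PD1 and 65.7 to 214 in vehicle tumors. In the combination group, tumors 1 and 3 held 1136 and 1155 FPKM and tumors 2 and 4 held 446 and 329. Tumors 1 and 3 were also the highest of that group in Pecam1, Flt1, Kdr, Icam1 and Vcam1. The part of leukocytes in these levels was not tested.

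Icam1 (Gene ID 15894, chr9:21015940-21028814), the endothelial and leukocyte ligand of the integrins LFA-1 and Mac-1, showed the largest difference from vehicle of the 6 tested genes after α-KG and after the combination. It stood at 2.19, 1.16, 0.24 and 0.52 FPKM in vehicle tumors, 1.82, 3.65, 4.6 and 2.8 in anti-PD1 tumors, 13.67, 7.97, 13.44 and 16.4 in α-KG tumors and 16.12, 5.77, 16.9 and 6.26 in combination tumors. Each of the 8 tumors that received α-KG lay above each of the 8 that did not. The mean was 12.5 times that of vehicle after α-KG (12.9 ± 3.53 against 1.03 ± 0.865 FPKM) and 11.0 times after the combination (11.3 ± 6.07). On the log2 scale, the rise was 2.83 after α-KG (SE 0.36, adjusted p = 5.32e-05) and 2.54 after the combination (SE 0.36, adjusted p = 0.000417), and both were called in all 25 alternatives run. The 2 groups with α-KG did not differ past the threshold (-0.28, 95% interval -1.05 to 0.48).

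Against anti-PD1 (3.22 ± 1.19 FPKM), Icam1 was 1.72 higher after α-KG (adjusted p = 0.0116) and 1.44 higher after the combination (adjusted p = 0.0216). The first held in all 25 alternatives. The second was lost when only both groups were fitted (adjusted p = 0.0647) and without anti-PD1 tumor 1 (1.26) or 4 (1.40) or combination tumor 1 (1.23) or 3 (1.21), its adjusted p lying between 0.00998 and 0.0856 across alternatives. Between anti-PD1 and vehicle the difference was 1.11 (adjusted p = 0.138). Without vehicle tumor 1 it was 1.36 and called (adjusted p = 0.0381, and between 0.0381 and 0.452 across alternatives), and so was that of Vcam1 (1.62, adjusted p = 0.0224, and between 0.0224 and 0.516 across alternatives), which raised the count of called genes from 0 to 2 of the 6. Vehicle tumor 1 had the highest Icam1 and Vcam1 levels of its group and also its highest leukocyte marker sum, 214 FPKM.

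The Icam1 promoter is shown because the gene is a known target of interferon gamma through the GAS element (searched as TTCNNNGAA, which reads alike on both strands) and of NF-κB. It covers chr9:21015690-21015939 on the plus strand, the 250 bases before the start. The capitals mark the GAS match, 42 bases before the start, and 8.33% of all promoters hold a match in their 300 bases. The exact NF-κB pattern GGGRNNYYCC and ACGTG were not in the 300-base window. NF-κB sites of other forms were not searched, so the absence of this pattern does not show that the promoter lacks such a site. The promoters of Tek and Selp held none of the 3 motifs, and those of Pecam1, Cdh5, Angpt2 and Vcam1 were not examined.
Icam1 promoter: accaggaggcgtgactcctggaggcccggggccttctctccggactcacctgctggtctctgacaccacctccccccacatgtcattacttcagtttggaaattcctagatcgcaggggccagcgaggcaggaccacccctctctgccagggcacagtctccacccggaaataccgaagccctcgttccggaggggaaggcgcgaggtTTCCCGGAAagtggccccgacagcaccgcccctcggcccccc

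Genes of the NF-κB pathway, its inhibitors among them, were followed beside Icam1. Of 10, 8 rose after α-KG against vehicle (median 1.27) and 8 after the combination (median 1.15, against 0.15 over all genes). Over all genes, 15.9% and 45.3% were called in these comparisons. Under the other scalings 8 or 9 of the 10 rose, and centering also gave 1 lower after the combination. After α-KG, Nfkbia, which encodes the inhibitor IκBα, rose by 4.04 from a mean of 10.8 to 202 FPKM (adjusted p = 1.28e-07), Tnfaip3 by 2.71 (adjusted p = 1.66e-05) and Traf1 by 2.56 (adjusted p = 3.82e-05). Of the 10, 3 were lower after the combination than after α-KG, where 38.3% of all genes were called. Under the other scalings 2 to 6 were lower. As deposited, the largest such difference was that of Nfkbia (-2.42, adjusted p = 5.73e-05). Neutrophil markers moved in the same directions. They rose after α-KG against vehicle (6 of 6, median 4.62) and were lower after the combination than after α-KG (6 of 6, median -3.51). The part of neutrophils and other leukocytes in the Nfkbia level and those of the other genes of this list was not tested.

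Vcam1 (Gene ID 22329, chr3:116110020-116129688), the ligand of the integrin VLA-4, had its highest mean after the combination. It stood at 5.39, 2.27, 0.56 and 0.62 FPKM in vehicle tumors, 3.15, 5.65, 7.77 and 5.1 in anti-PD1 tumors, 1.79, 3.89, 3.47 and 1.72 in α-KG tumors and 16.74, 5.64, 11.37 and 5.89 in combination tumors. All 4 combination tumors lay above all vehicle and all α-KG tumors and overlapped with the anti-PD1 tumors. The order of the means was vehicle (2.21 ± 2.26), α-KG (2.72 ± 1.12), anti-PD1 (5.42 ± 1.90) and the combination (9.91 ± 5.27), and no neighbors in it differed past the threshold. Vcam1 was 1.89 higher after the combination than in vehicle (SE 0.42, adjusted p = 0.00263) and 1.48 higher than after α-KG (SE 0.42, adjusted p = 0.0130), and both were called in all 25 alternatives. The difference of α-KG from vehicle was 0.41 (95% interval -0.48 to 1.31, adjusted p = 0.559), where Icam1 had risen by 2.83.

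Macrophage markers are given beside Vcam1 because some macrophages make it. The summed level of 8 such markers ran from 675 to 1621 FPKM in combination tumors, 430 to 698 in α-KG, 427 to 803 in anti-PD1 and 98.2 to 488 in vehicle tumors. All 8 were higher after the combination than in vehicle, and 4 of 8 were higher than after α-KG, against 45.3% and 38.3% of all genes called. Under the other scalings 1 to 4 were higher than after α-KG. Their part in the Vcam1 level was not tested.

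Selp (Gene ID 20344, chr1:164115264-164150026), P-selectin, which endothelium and platelets hold in storage granules, was highest after α-KG alone. It stood at 0.05, 0.04, 0.1 and 0.13 FPKM in vehicle tumors, 0.2, 0.04, 0.04 and 0.06 in anti-PD1 tumors, 0.39, 0.21, 0.4 and 0.4 in α-KG tumors and 0.17, 0.05, 0.06 and 0.02 in combination tumors. The 4 α-KG tumors lay above the 12 others, though narrowly, since the lowest of them was at 0.21 and anti-PD1 tumor 1 at 0.2. With no minimum level, Selp was 0.32 higher after α-KG than in vehicle (SE 0.06, adjusted p = 0.00305), 0.32 higher than after anti-PD1 (adjusted p = 0.00868) and, after the combination, 0.33 lower than after α-KG (difference -0.33, adjusted p = 0.00224). The interaction was -0.33 (adjusted p = 0.0336). An exact two-sided permutation test gave p = 0.029 for each of the first 3 comparisons. All these levels lie below the 0.5 FPKM used as a minimum, so they rest on few fragments.

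Markers of platelets, which hold P-selectin, and of neutrophils are given beside Selp. The 8 platelet and megakaryocyte markers summed to 19.1 to 34.4 FPKM in combination tumors, 50.6 to 74.0 in α-KG, 29.8 to 63.9 in anti-PD1 and 17.95 to 26.2 in vehicle tumors, and 2 of the 6 tested (Pf4 and Ppbp) rose after α-KG. The 6 neutrophil markers summed to 1081 to 2877 FPKM in α-KG tumors and 19.0 to 113 in the 12 others, with 6 of 6 higher after α-KG than in vehicle and lower after the combination than after α-KG. Over all genes, 15.9% were called between α-KG and vehicle and 38.3% between the combination and α-KG. The lowest α-KG tumor in Selp, tumor 2, was also the lowest of its group in the neutrophil sum. The part of platelets and neutrophils in the Selp and Icam1 levels was not tested.

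**Figure D4:**
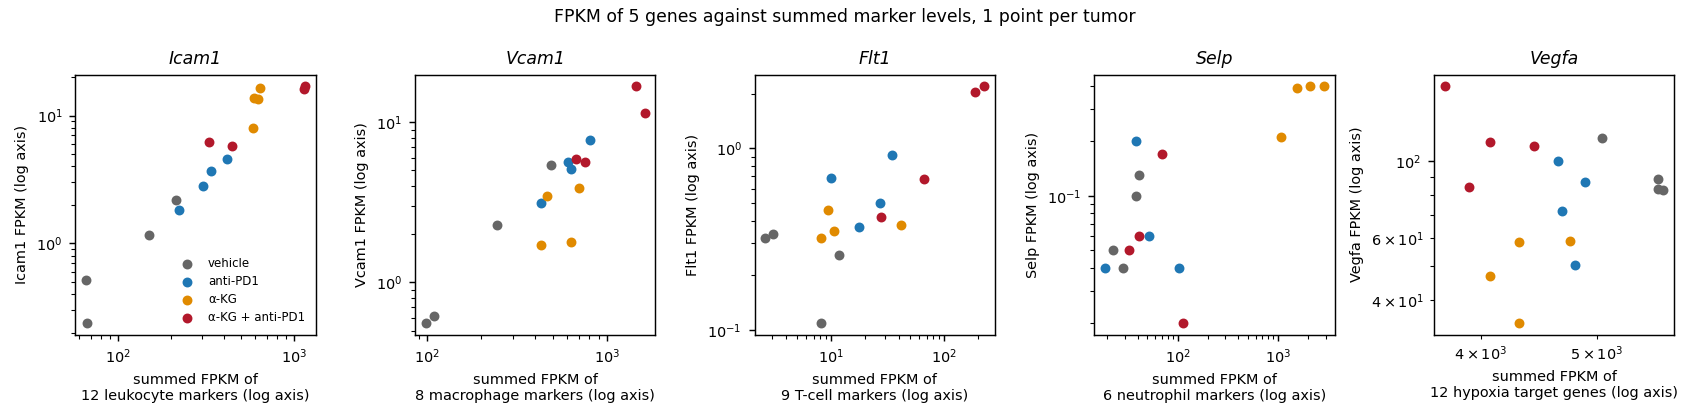
FPKM of 5 genes against the summed FPKM of a marker list in the same tumor, both on log axes, 1 point per tumor, colored by group. Icam1 climbs with the leukocyte sum across all groups. The 4 α-KG tumors stand apart in the panel of Selp and neutrophil markers, and combination tumors 1 and 3 in that of Flt1 and T-cell markers.

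For other adhesion genes of the vessel wall the differences from vehicle were smaller than those of Icam1 and Vcam1 after the combination. Of 8 tested, 3 were higher and 1 lower after the combination against vehicle (median 0.22), where 45.3% of all genes were called. After quantile normalization, 1 was higher and 3 lower. Icam2 rose by 1.06 (adjusted p = 0.0102), Vwf, von Willebrand factor, by 0.71 (adjusted p = 0.0402) and Cd99 by 0.65 (adjusted p = 0.0021). Icam2 lost its call in 1 and Vwf in 2 of the 4 other scalings. Ackr1, a chemokine-binding receptor, fell by 0.87 (adjusted p = 0.00638), from 1.10 ± 0.813 to 0.085 ± 0.0645 FPKM, and fell under every scaling. Red-cell genes fell in the same comparison, 6 of 6 tested (median -3.05). The part of red cells in the Ackr1 level was not tested. Sele, E-selectin, reached at most 0.08 FPKM and Madcam1 0.16. After α-KG, where 15.9% of all genes were called, limma called 0 of the 8 (2 at an unadjusted p under 0.05), with 0 or 1 under the other scalings.

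On the leukocyte side, most receptors for these adhesion molecules rose. Of 10 tested, 8 were higher after the combination (median 2.38) and 7 after α-KG (median 2.14) than in vehicle, against 45.3% and 15.9% of all genes called. Under the other scalings 7 or 8 were higher, with 1 lower after the combination on centering. Itgb2, the shared chain of the integrins that bind Icam1, rose by 3.00 after the combination (adjusted p = 0.000417), and Itgal, its partner in LFA-1, by 2.94 (adjusted p = 0.000417). Selplg, the ligand of P-selectin, rose by 2.83 (adjusted p = 0.000567). After α-KG alone, Itgam, the partner chain of Mac-1, rose by 2.97 (adjusted p = 6.61e-05). The chains of VLA-4, the integrin that binds Vcam1, changed less. Itga4 was 0.38 above vehicle after the combination (adjusted p = 0.00906) and 0.08 above it after α-KG, which was not called. Itgb1 differed from vehicle by -0.04 after the combination and by -0.16 after α-KG, and was called in neither comparison.

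Among genes of sprouting tip cells and Notch signaling, 4 of 6 tested were higher and 1 lower after the combination against vehicle (median 0.90). In this comparison 45.3% of all genes were called, and 3 or 4 of the 6 were higher under the other scalings. Cxcr4, a chemokine receptor shared with leukocytes, rose by 2.15 (adjusted p = 0.000465), Notch1 by 1.35 (adjusted p = 0.00043) and Pdgfb by 1.22 (adjusted p = 0.000946). The tip-cell genes Dll4, Aplnr and Hey1 stayed at or under 0.36, 0.27 and 0.16 FPKM and were not tested. Of the 20 endothelial markers, 6 were tested, and limma called 0 of these after the combination against vehicle (1 at an unadjusted p under 0.05), with up to 2 lower on centering and 1 higher after scaling all tumors to one sum. Rasip1 was the marker called after α-KG (0.92, adjusted p = 0.000126).

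Among inhibitors of vessel growth, Thbs1, thrombospondin 1, was at 6.82 ± 4.73 FPKM in vehicle, 35.6 ± 10.1 after anti-PD1, 126 ± 55.4 after α-KG and 13.3 ± 5.39 after the combination. This was a rise by 2.36 after anti-PD1 (adjusted p = 0.0203), a rise by 4.11 after α-KG (adjusted p = 1.38e-06) and a value 3.14 lower after the combination than after α-KG (difference -3.14, adjusted p = 6.32e-05). Against vehicle, 6 of 6 neutrophil markers and 2 of 6 platelet markers also rose after α-KG. The part of these cells in the Thbs1 level was not tested. After the combination, Thbs1 was 0.97 above vehicle (adjusted p = 0.0412). The angiostatic chemokines Cxcl9 and Cxcl10 were 3.44 and 1.67 higher after the combination than in vehicle (adjusted p = 0.000534 and 0.00104). After α-KG these chemokines differed from vehicle by 0.09 and 0.34 (adjusted p = 0.935 and 0.514). Of the 10 tested, 3 were higher and 2 lower after the combination, and 2 higher after α-KG, against vehicle. Over all genes, 45.3% and 15.9% were called in either direction in these comparisons. For the combination the split was 2 higher and 5 lower with quantile normalization, and 4 higher and 0 lower with all tumors scaled to one sum.

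The genes whose log2(FPKM + 1) followed each of the 10 most closely over the 16 tumors are named as a description, since the tumors share groups, libraries and scale. Icam1 was followed by Lcp2 (Pearson r = 0.991), an adaptor of hematopoietic cells, Ncf1 (r = 0.987), a subunit of the phagocyte oxidase, and AB124611 (r = 0.986). For Vcam1 these were Gatm (r = 0.963), the immunoproteasome subunit Psmb8 (r = 0.961) and H2-DMa (r = 0.955), which loads class II molecules. For Flt1 they were the NK-cell receptor Klre1 (r = 0.970), the lymphocyte transcription factor Tbx21 (r = 0.964) and Gimap5 (r = 0.955). Pecam1 was followed by Glrx (r = 0.946), Sirpb1c (r = 0.943) and Prdx5 (r = 0.943).

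For Cdh5, genes known from capillaries led the list, Igfbp7 (r = 0.906), Gpihbp1 (r = 0.872), which anchors lipoprotein lipase on capillary endothelium, and the caveolar protein Cavin3 (r = 0.833). Selp was followed by Prok2 (r = 0.954), which neutrophils make, Smox (r = 0.918) and Igfbp6 (r = 0.910). For Kdr the genes were Coro1b (r = 0.927), Cd47 (r = 0.926) and Macir (r = 0.921), and for Vegfa Myef2 (r = 0.976), Sdad1 (r = 0.967) and Rtkn (r = 0.967). Angpt2 had no close match, with Nceh1 (r = 0.742), Ipmk (r = 0.741) and Hs3st1 (r = 0.740) at the head. Tek was led by Spata1 (r = 0.848), Zfp787 (r = 0.830) and Rsbn1 (r = 0.819), of which little can be read with 8 of its 16 values at 0. On deviations from group means, r for these 30 pairs was 0.895 to 0.976 for Icam1, Vcam1, Flt1 and Vegfa, 0.833 to 0.939 for Cdh5, 0.851 to 0.894 for Pecam1 and Kdr, 0.672 to 0.757 for Tek, 0.584 to 0.797 for Selp and 0.510 to 0.541 for Angpt2. None of the 10 was among the 3 closest genes of another.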

How the data were processed

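Poly(A) RNA of 16 tumors was selected with oligo-dT, converted to cDNA with dUTP in the second strand and sequenced on the DNBSEQ platform. The table deposited by the authors holds FPKM of 18929 genes in 16 columns, 1 per tumor. HISAT, Bowtie2 and the build mm10 are named in the submitters' processing notes. The program that computed FPKM, its annotation and any filter are not given in the sources used here. Counts were not used here, so depth and the precision of low values are unknown.

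One model with a mean per group was fitted to log2(FPKM + 1) of all 16 tumors with limma 3.58.1 in R 4.3.3, using lmFit, contrasts.fit and a trended eBayes step, for the 12850 genes reaching 0.5 FPKM in 4 or more tumors. The Benjamini-Hochberg adjustment covered all of these genes. The fit was tested on simulated data. Nothing in the labels says more of the 4 samples of a group than their number, and the study's methods call them independent tumors. Exact two-sided permutation tests (scipy 1.17.1) have a smallest p of 0.029 with 4 tumors against 4. The 10 genes, the marker lists and the tests were chosen with earlier results of these data known, so no count is independent support. Genes named from a list are those called with the largest differences, at most 4 per list and comparison (1 such gene is not reported here), beside defining markers given with their range, and the 3 closest genes by Pearson r over 16 tumors. Alternatives were a pseudocount of 0.1, no minimum level (18924 genes), quantile normalization, centering on tumor medians, scaling to one sum with or without hemoglobin genes, fits of 2 groups only, eBayes without a trend, a replicate block, and leaving out 1 tumor at a time. The highest correlation between 2 tumors was 0.993, and at most 1.13% of genes held identical values in any pair. Coordinates and promoters come from RefSeq GRCm38.p6, the assembly that mm10 is made from, and 6 of the 10 genes had a promoter entry.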

Additional observations from a re-analysis of the deposited data

Results flagged for a closer look

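Vegfa is listed because the effect of anti-PD1 differed between tumors with and without α-KG: the interaction was 1.51 on the log2(FPKM + 1) scale (limma adjusted p = 0.00942). In the absence of α-KG, anti-PD1 tumors stood 0.29 below vehicle (difference -0.29), and in its presence they stood 1.22 above α-KG.

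Of 39 groups of 4 values examined over the 10 genes, 4 held a tumor far from the other 3 by Dixon's criterion, and chance picks out about 1 in 20. Cdh5 was at 0.92 FPKM in anti-PD1 tumor 3, against 0.12 to 0.21 in the others of its group, and Kdr at 0.59 in the same tumor, against 0.12 to 0.2. Selp was at 0.2 FPKM in anti-PD1 tumor 1, against 0.04 to 0.06, and at 0.21 in α-KG tumor 2, against 0.39 to 0.4. All 4 values come from genes under 1 FPKM, and their causes were not tested.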

How the results depend on the processing

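For the 6 tested genes, leaving out each tumor in turn gave 0 to 2 called for anti-PD1 against vehicle (2 without vehicle tumor 1), 0 to 3 for the combination against anti-PD1 and 1 to 2 for the interaction. The count for the combination against anti-PD1, 1 as reported, was 2 with quantile normalization or centering (Icam1 higher and Angpt2 lower), 2 with scaling to one sum (Icam1 and Vegfa higher), and 0 when only both groups were fitted. With no minimum level, which admits all 10 genes, it was 2 for α-KG against anti-PD1 and 2 for the interaction, and the latter was 2 with quantile normalization and 3 with centering, when Angpt2 (-0.67) and Icam1 (-1.59) joined Vegfa. The counts for the combination and α-KG against vehicle and for the combination against α-KG stayed within 1.5 times of those reported in every alternative run, but with quantile normalization 2 were higher and 1 lower in the first and the last of these. The sign turned for Angpt2 between the combination and vehicle, to -0.40 with quantile normalization and -0.29 with centering, and it ran from -0.023 (without combination tumor 2) to 0.11 with 1 tumor left out. Between the combination and α-KG, Angpt2 turned to 0.10 with scaling to one sum, and Pecam1 ran from -0.39 to 0.0082 (without combination tumor 4). The interaction of Vcam1 ran from -0.14 (without vehicle tumor 1) to 0.54. The cause of these changes was not tested.

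The replicate numbers did not pair the tumors: over 24 pairs with the same number, the correlation of deviations from group means had a median of 0.007 and ran from -0.642 to 0.411, with 9 pairs over 0.1. With the replicate block, the counts of called genes were 4 for the combination, 0 for anti-PD1 and 3 for α-KG against vehicle, 1 for the combination against anti-PD1, 3 for the combination against α-KG, 1 for α-KG against anti-PD1 and 1 for the interaction, as without it.

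Low levels limit what can be said of Tek, Selp, Kdr and Cdh5, since depth is unknown and values are rounded to 2 decimals. The comparisons rest on 4 tumors per group. In FPKM, the combination tumors had the largest SD of all groups in Flt1, Icam1, Vcam1, Vegfa and Pecam1. On the log2(FPKM + 1) scale, Vcam1 ranged over more in vehicle tumors (0.64 to 2.68) than in combination tumors (2.73 to 4.15).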

Other observations

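Other cell types of the vessel wall were followed by marker lists as well. Of 10 pericyte and smooth muscle markers, 5 were tested, and Des, desmin, which skeletal muscle also makes, was the 1 called against vehicle after each treatment. It stood at 11.28 to 55.53 FPKM in vehicle tumors, 1.65 to 16.42 after the combination, 1.04 to 2.04 after α-KG and 1.39 to 1.86 after anti-PD1, and its difference from vehicle was -3.00 after α-KG (adjusted p = 0.00127). Over all genes, 45.3% were called against vehicle after the combination, 15.9% after α-KG and 0.747% after anti-PD1. Skeletal muscle markers were highest in vehicle tumors too, and their part in the Des level was not tested.

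Of 6 markers of lymphatic endothelium, 3 were tested. Pdpn, podoplanin, which fibroblasts and macrophages also make, rose after α-KG from 13.3 ± 1.81 to 25.3 ± 5.92 FPKM, by 0.86 (adjusted p = 0.000609), and was called under each scaling. Lyve1 reached at most 0.81 FPKM and was below the minimum level.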
